A study of Cucumis melo with 27 samples.

Results

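Transcript abundance in young leaves of the melon (Cucumis melo) cultivar F39 was compared with that in F39 fruit at 3 stages of development. The comparison used 12 of the 27 RNA-seq libraries of the series, chosen by their labels: 3 from leaves that were 14 days old, and 3 each from fruits harvested 20-25, 30-35 and 40 days (d) after flowering. The plants were raised in the field from transplanted seedlings, and the labels give no treatment and no genetic change for any of the 4 groups. For all 12 libraries the number in the title equals the number of the file, whereas for 12 of the other 15, all from fruit, it does not. Nothing in the labels tells separate plants or fruits from repeat preparations, and p-values therefore measure a spread between libraries that may be technical.

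A leaf is the site of photosynthesis, and the nuclear genes for the small subunit of the carbon-fixing enzyme Rubisco and for the light-harvesting proteins of the chloroplast are, as background, among the most abundant transcripts of green tissue. A melon fruit first grows by cell division and expansion, later imports sugar and stores it as sucrose, then softens and, in many cultivars, ripens with a burst of the hormone ethylene. The files give gene IDs without names, and 0 of the 25200 IDs were found in the reference gene table. The genes below are therefore known by ID alone, no role can be given to any of them, and the labelled tissues were not checked against marker genes.

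Libraries held between 6500255 and 28731038 counts, with leaf at 12912971, 18010836 and 28731038 and with the shallowest ones in fruit at 40 d. The spread between replicates, as the biological coefficient of variation, was 0.419 in leaf and 0.53, 0.767 and 0.554 in fruit at 20-25, 30-35 and 40 d. Levels are given as CPM, counts rescaled to a common library size after TMM scaling, which sets the bulk of genes level between libraries. The TMM factors were 0.53 to 0.604 in leaf and 0.877 to 1.26 in fruit, so that a leaf CPM on this scale is higher than one of the library total. CPM is not corrected for gene length, which the files do not give, so genes called most abundant are those with the most counts, not those with the highest level per length.

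Few genes filled the leaf libraries. In leaf, 64, 43 and 55 genes together held 50% of the counts of replicates 1, 2 and 3. The same share was spread over 633, 461 and 575 genes in fruit at 20-25 d, over 574, 363 and 650 genes at 30-35 d and over 456, 243 and 400 genes at 40 d. Every leaf library lay below every fruit library, and replicate 2 of 40 d was the lowest of fruit. The mean was 54.0 ± 10.5 genes in leaf (SD, n = 3) and 484 ± 136 genes in fruit (SD, n = 9), with p = 0.00909 by a two-sided exact permutation test, the smallest value that 3 against 9 libraries allow. With the most abundant gene of each library set aside, 139, 76 and 108 genes held 50% of the remaining leaf counts. In fruit this took 273 to 685 genes. Whether the number of genes detected separated the tissues depended on the scale. At 1 CPM or more after TMM scaling there were 13116 ± 151 genes in leaf and 11887 ± 428 in fruit, with every leaf library above every fruit library (two-sided exact permutation p = 0.00909, SD, n = 3 and 9). At 1 CPM or more of the library total the tissues overlapped, with 12274 ± 296 in leaf and 11935 ± 623 in fruit (two-sided exact permutation p = 0.427, SD, n = 3 and 9).

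**Figure D1:**
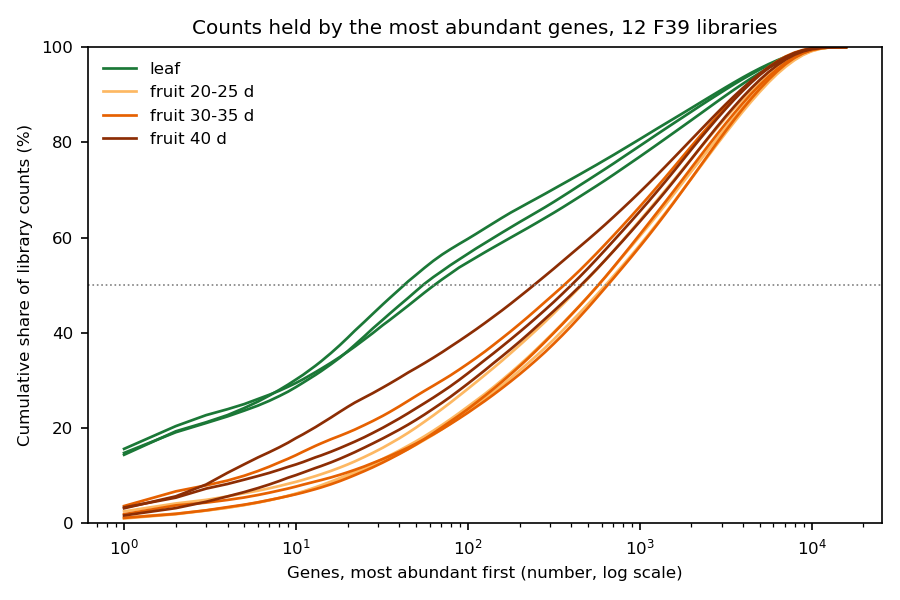
Cumulative share of a library's counts (%) against the number of genes, taken from the most abundant on (log scale), with 1 line per library. The 3 leaf lines reach 50% at 43 to 64 genes and the 9 fruit lines at 243 to 650 genes.

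A block of 43 genes stood among the 50 most abundant of every leaf library. They took 45.0%, 49.1% and 46.3% of the counts in leaf, against 0.896%, 0.728% and 0.957% in fruit at 20-25 d, 0.739%, 2.28% and 2.80% at 30-35 d, and 3.54%, 0.624% and 2.84% at 40 d. Leaf thus lay far above all fruit, while within fruit replicate 1 of 30-35 d and replicate 2 of 40 d stood with the 20-25 d libraries. The single most abundant gene, MELO3C012252.2, held 15.6%, 14.4% and 14.8% of the leaf counts. The other 42 held 29.4%, 34.8% and 31.5%. In the 15 other fruit libraries of the series the 43 genes held between 0.345% and 3.64%, with a median of 0.787%.

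None of these leaf genes (0) was among the 26, 5 and 18 genes that stood in the same way among the 50 most abundant of all libraries at 20-25, 30-35 and 40 d. The 26 genes of 20-25 d held 1.01 ± 0.0684% of the counts in leaf, against 11.1 ± 2.14%, 6.19 ± 3.36% and 3.43 ± 1.2% in fruit at 20-25, 30-35 and 40 d (SD, n = 3 each). The 18 genes of 40 d held 0.682 ± 0.0675% in leaf, against 2.84 ± 0.637%, 5.77 ± 4.15% and 11.5 ± 3.64% at the 3 stages. The 5 genes of 30-35 d held a mean of 0.287% in leaf, against 2.63%, 2.16% and 1.19% at the 3 stages, highest at 20-25 d. Each block was chosen for its level at 1 fruit stage, so these shares are descriptions. All blocks were small in leaf. Among the fruit stages, the mean share was lowest at 40 d for the block of 20-25 d and lowest at 20-25 d for that of 40 d.

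The 43 genes were chosen for their level in leaf, so their difference from fruit is a description. Their median log2 fold change, leaf over fruit, was 7.12 at 20-25 d, 5.14 at 30-35 d and 4.98 at 40 d, where the medians of all genes tested were -0.08, -0.16 and 0.03. The difference was largest at 20-25 d for 37 of them, at 30-35 d for 2 and at 40 d for 4. Levels within fruit did not enter the choice. Of the 43 genes, 20 (46.5%) passed the test of fruit at 40 d against 20-25 d, where 26.1% of all genes did, and 19 of the 20 were higher at 40 d (edgeR, Benjamini-Hochberg adjusted p under 0.05). Omitting replicate 1, 2 or 3 of 20-25 d brought the number to 10, 13 or 11 (23.3%, 30.2% or 25.6%, where 19.1%, 18.2% or 18% of all genes passed). Omitting replicate 1 or 3 of 40 d brought it to 12 or 13 (27.9% or 30.2%, where 17.6% or 18.2% of all genes passed). Leaving out replicate 2 of 40 d, which is low for these genes, gave 24 (55.8%, where 16.6% of all genes passed), and brought the median at 40 d to 4.56. With the stricter filter on low counts 22 of the 43 passed (51.2%), where 35.4% of the genes it kept did. The 43 genes were chosen as abundant, so their shares and those of all genes are not matched for abundance. By the test that all 3 fruit stages are equal, 12 of the 43 passed (27.9%), where 20.2% of all genes did, and 5 (11.6%, against 13.9% of all genes) in the fit of the 12 libraries alone. This number was 6 and 7 (14% and 16.3%) without replicates 1 and 3 of 20-25 d, where 12.3% and 11.6% of all genes passed. Omitting replicate 1 of 40 d gave 7 (16.3%, against 13.3% of all genes), and omitting replicate 1 of 30-35 d gave 19 (44.2%, against 24.3%). Without replicate 2 of 40 d it was 17 (39.5%, against 12.6%), and with DESeq2 it was 21 (48.8%, against 28.9%).

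**Figure D2:**
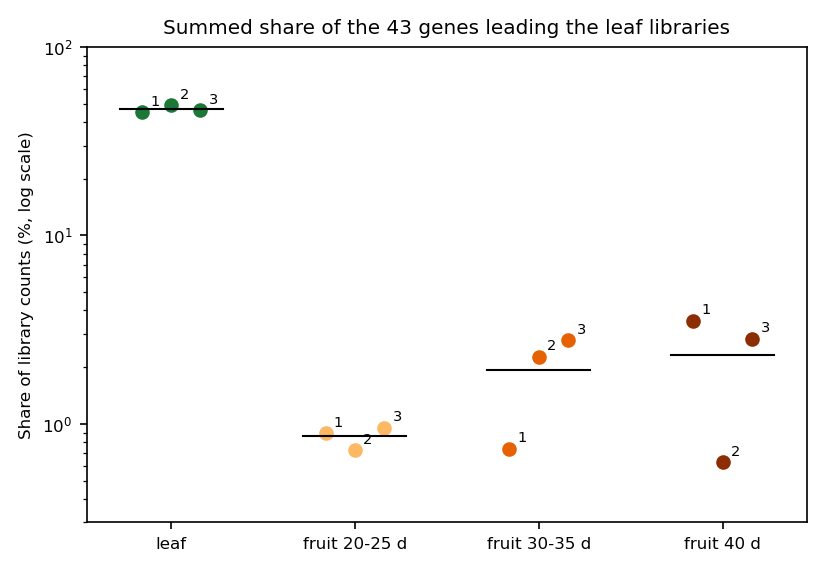
Share of library counts (%, log scale) held by the 43 genes leading the leaf libraries, with 1 point per library numbered by replicate and a line at the group mean. Leaf libraries lie at 45.0% to 49.1% and fruit libraries at 0.624% to 3.54%, with replicate 1 of 30-35 d and replicate 2 of 40 d below the others of their stages.

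By the number of genes called and the number far apart, among the 15130 tested, the difference from leaf was largest at 40 d. By the edgeR test, 6223 genes (41.1%) differed between leaf and fruit at 20-25 d, 6773 (44.8%) at 30-35 d and 7442 (49.2%) at 40 d. Those over 16-fold apart numbered 1891, 2101 and 2707, and those over 64-fold apart 963, 1078 and 1514. The increase lay mostly on the leaf side: genes over 16-fold higher in leaf numbered 1301, 1484 and 1898, and those over 16-fold lower in leaf 590, 617 and 809. The median absolute log2 difference over all genes was 1.29, 1.34 and 1.48, but with library totals alone it was 1.76, 1.76 and 1.74, lowest at 40 d. These 3 comparisons share the leaf libraries, and the counts themselves were not tested against each other.

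The number over 16-fold was highest at 40 d in 20 of 20 alternatives, among them counts thinned to 1 depth, where it was 1673, 1867 and 2442. The number of genes called was highest at 40 d in 16 of the 20. The exceptions were the libraries scaled by their totals alone, with 8424, 8695 and 8537 genes, and the fits without 1 library of 40 d, with 6474, 6226 and 6431 genes at that stage for replicates 1, 2 and 3. Fitted with only the groups compared, 20-25 d had 6746 genes, 30-35 d had 5325 and 40 d had 7378.

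**Figure D3:**
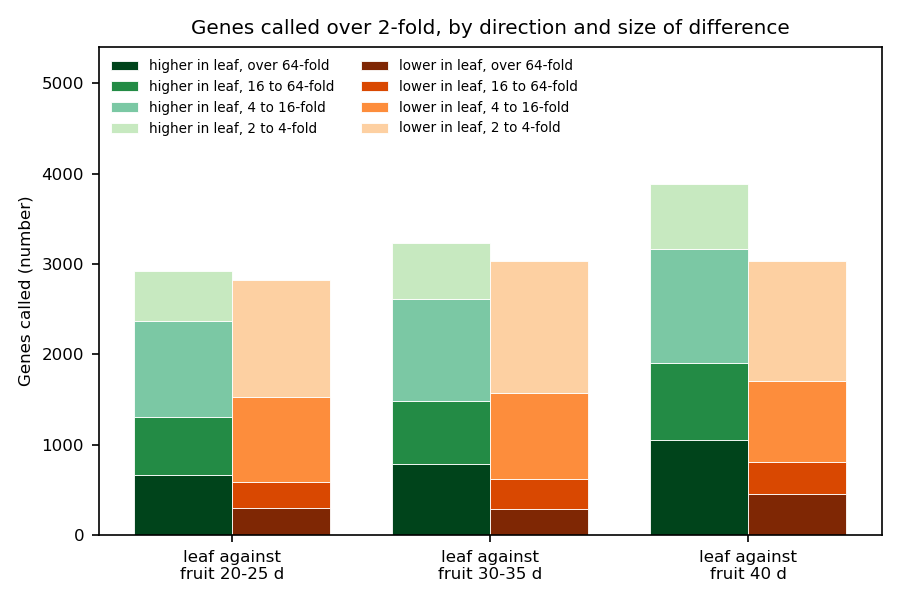
Number of genes called in leaf against fruit at each stage and differing over 2-fold, stacked by size of difference, with genes higher in leaf on the left (green) and lower in leaf on the right (orange). The darkest parts, over 64-fold, hold 664, 790 and 1056 genes higher in leaf and 299, 288 and 458 genes lower in leaf at 20-25, 30-35 and 40 d.

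The split by direction depended on the scaling. Of the genes called at 30-35 d, 3304 (21.8% of those tested) were higher and 3469 (22.9%) lower in leaf, a share of 48.8% higher, which became 60.1% with median-of-ratios scaling and 24.9% with library totals alone. At 20-25 d, 3044 (20.1%) were higher and 3179 (21%) lower, with 48.9% higher, against 57.5% and 22.5% under those scalings. At 40 d, 3985 (26.3%) were higher and 3457 (22.8%) lower, with 53.6% higher, against 60.9% and 33.1%. For leaf against the mean of the 3 stages, where 7985 genes (52.8%) were called, 4254 higher (28.1%) and 3731 lower in leaf (24.7%), the log2 fold change had a median over all genes of -0.09, against 0.16 with median-of-ratios scaling and -1.01 with library totals alone. Fold changes are relative to this centre.

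A gene was taken to mark a tissue when it was called in 1 direction against all 3 stages and no library of the tissues overlapped. By this rule 2178 genes (14.4% of those tested) marked leaf and 1705 (11.3%) marked fruit. Among all genes tested, 21.2% had every leaf library above every fruit library and 15.5% had every leaf library below. With library totals alone the numbers were 1328 leaf-marking and 4100 fruit-marking genes, so that which set is larger turned with the scaling. In bulk tissue, fewer cells of a type and less RNA per cell cannot be told apart.

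Leaf-marking genes held most of the leaf transcriptome. They took 72.9 ± 2.18% of the counts in leaf, against 5.08 ± 0.551%, 6.88 ± 2.20% and 7.0 ± 2.60% in fruit at 20-25, 30-35 and 40 d (SD, n = 3 each). Fruit-marking genes took 2.66 ± 0.302% in leaf, against 29.0 ± 1.66%, 29.3 ± 3.40% and 31.0 ± 1.82% in fruit. The median log2 difference of leaf-marking genes was 4.01, 4.03 and 4.30 towards leaf at the 3 stages, and that of fruit-marking genes was 1.97, 2.08 and 2.03 towards fruit. As these genes were chosen on the same contrasts, the medians are descriptions, and they rest on the scaling. Against the mean of the stages, 1578 genes were called over 16-fold higher and 594 over 16-fold lower in leaf with TMM, against 1113 and 978 with library totals alone.

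The 15 fruit libraries outside the comparison came from F39 at 45 d and from the cultivar TTDV. Their levels were not in the contrasts or the overlap rule that chose these genes. They did enter the filter, the scaling and the estimate of spread behind the calls, so they are not an independent check. There 1972 of the 2178 leaf-marking genes (90.5%) had every leaf library above all 15, where 18.6% of all genes did. Of the 1705 fruit-marking genes, 1186 (69.6%) had every leaf library below all 15, where 10.5% of all genes did. The leaf libraries are the same in both comparisons.

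Among the most abundant leaf-marking genes, MELO3C012252.2 reached 259008, 268497 and 279130 CPM in leaf. In fruit it had 592, 569 and 677 CPM at 20-25 d, 617, 3530 and 2313 CPM at 30-35 d, and 3121, 375 and 2847 CPM at 40 d. The tissues were far apart in every library, and within fruit the later stages were spread over a wider range than 20-25 d. The log2 fold change against the mean of the stages was 7.58 ± 0.75 (SE; edgeR, Benjamini-Hochberg adjusted p = 3.35e-08).

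MELO3C023879.2 had 79221, 91962 and 81964 CPM in leaf, against 164, 67.7 and 215 CPM at 20-25 d, 112, 183 and 98.6 CPM at 30-35 d, and 165, 30.3 and 81.6 CPM at 40 d. No fruit stage stood apart from the others (stage test, edgeR adjusted p = 0.738), and the log2 fold change was 9.44 ± 0.60 (SE; adjusted p = 9.69e-11).

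The next 6 in leaf level were MELO3C023354.2, MELO3C019677.2, MELO3C007154.2, MELO3C003238.2, MELO3C024206.2 and MELO3C007507.2, with log2 fold changes of 5.92, 5.70, 7.33, 6.29, 4.70 and 4.23 (edgeR, adjusted p from 1.01e-08 to 4.19e-06). MELO3C007154.2 shows how one library differs. It had 20721, 28192 and 22823 CPM in leaf, against 64.4, 69.7 and 65.5 CPM at 20-25 d, 52.7, 112 and 298 CPM at 30-35 d, and 556, 5.02 and 399 CPM at 40 d. Replicate 2 of 40 d was the lowest of all fruit libraries here, although its stage holds the highest ones. None of the 8 genes passed the stage test, with edgeR adjusted p between 0.158 and 0.764.

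Of the 5 leaf-marking genes with the largest difference, 1 was MELO3C023879.2, described above, and the other 4 had under 6 CPM in all 9 fruit libraries. MELO3C009958.2 had 14881, 17065 and 19185 CPM in leaf and no more than 0.617 CPM in any of the 9 fruit libraries. Its log2 fold change was 16.11 ± 1.07 (SE; edgeR adjusted p = 1.42e-10), and 17.44 without replicate 3 of 20-25 d. MELO3C010312.2 had 17626, 11187 and 19736 CPM in leaf, against 2.64, 0.30 and 1.59 CPM at 20-25 d, 0.494, 0.0771 and 0 CPM at 30-35 d, and 0, 0.346 and 0 CPM at 40 d. Only a few reads thus remained after 20-25 d, and the log2 fold change of 15.62 ± 0.97 (SE; adjusted p = 6.25e-10) became 16.36 when replicate 1 of 30-35 d was omitted, or 16.82 when replicate 2 of 40 d was.

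MELO3C007698.2 and MELO3C024356.2 were lower in leaf than those but likewise nearly confined to it among these 12 libraries. MELO3C007698.2 had 4249, 6370 and 4577 CPM in leaf and 0.600 to 5.92 CPM in fruit, 11.28 ± 0.75 apart in log2 (SE; edgeR adjusted p = 1.51e-10). MELO3C024356.2 had 5124, 3340 and 6935 CPM in leaf and 1.26 to 5.09 CPM in fruit, 10.87 ± 0.37 apart in log2 (SE; edgeR adjusted p = 5.13e-15). In the 15 other fruit libraries the highest values of these genes were 12.5 and 10.7 CPM.

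Fruit-marking genes of high abundance differed in which fruit libraries they were highest. MELO3C026550.2 had 674, 418 and 458 CPM in leaf, against 9595, 24109 and 8706 CPM at 20-25 d, 10233, 4972 and 4715 CPM at 30-35 d, and 2474, 1095 and 5251 CPM at 40 d. It was the most abundant gene of all 3 libraries at 20-25 d, and its groups did not overlap with leaf. The log2 fold change was -3.66 ± 0.89 (SE; edgeR adjusted p = 0.00158), and the stages were not separated (adjusted p = 0.152).

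MELO3C025025.2 had 14.8, 25.5 and 5.19 CPM in leaf, against 827, 3618 and 357 CPM at 20-25 d, 2827, 1674 and 15884 CPM at 30-35 d, and 15926, 1610 and 20351 CPM at 40 d. The log2 fold change was -8.41 ± 1.5 (SE; edgeR adjusted p = 7.06e-05), or -9.02 without leaf replicate 2. Fruit stages overlapped and were not separated by the stage test (adjusted p = 0.167). Replicate 2 of 40 d, below the other libraries of its stage here, was above them for MELO3C031322.2, with 35650 CPM beside 12745 and 3290. That gene had 11, 10.5 and 23.7 CPM in leaf and at least 274 CPM in fruit, and its log2 fold change was -7.99 ± 1.79 (SE; adjusted p = 0.000759).

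MELO3C015419.2 and MELO3C014991.2 showed the largest differences from leaf at 40 d among the abundant genes. MELO3C015419.2 had 6.54, 2.18 and 5.65 CPM in leaf, against 311, 2272 and 3267 CPM at 20-25 d, 6.64, 592 and 107 CPM at 30-35 d, and 10844, 27825 and 9663 CPM at 40 d. Replicate 1 of 30-35 d came within 0.1 CPM of the highest leaf library, and the log2 fold change of -8.67 ± 2.49 (SE; edgeR adjusted p = 0.00577) became -7.89 without replicate 2 of 30-35 d.

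MELO3C014991.2 differed between fruit stages by the test. It had 3.98, 0.414 and 1.91 CPM in leaf, against 426, 525 and 492 CPM at 20-25 d, 413, 3245 and 1110 CPM at 30-35 d, and 4517, 12588 and 3337 CPM at 40 d. All 40 d libraries lay above all earlier ones (stage test, edgeR adjusted p = 0.00891), and the log2 fold change from leaf was -7.85 at 20-25 d, -9.58 at 30-35 d and -11.68 at 40 d. Against the mean of the stages it was -9.70 ± 1.14 (SE; adjusted p = 3.97e-07), and -10.47 without leaf replicate 1.

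MELO3C023537.2 ran the other way. It had 203, 155 and 140 CPM in leaf, against 5338, 7009 and 3552 CPM at 20-25 d, 4338, 1164 and 2018 CPM at 30-35 d, and 1635, 771 and 1612 CPM at 40 d. Its difference from leaf was largest at 20-25 d, with a log2 fold change of -5.00, against -3.92 and -3.01 at the later stages (stage test, edgeR adjusted p = 0.0327). MELO3C010180.2 and MELO3C004229.2, with log2 fold changes of -3.42 and -2.65 against the mean (adjusted p = 9.57e-06 and 0.000582), did not pass the stage test (adjusted p = 0.363 and 0.435).

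Several fruit-marking genes had no count in leaf, and their folds are lower bounds against a floor of 3 counts over the leaf group. MELO3C002691.2 had 0 counts in leaf, against 615, 431 and 254 CPM at 20-25 d, 420, 492 and 632 CPM at 30-35 d, and 523, 433 and 596 CPM at 40 d. This gene was at least 4721-, 5605- and 5632-fold lower in leaf at the 3 stages, and its fruit level was even (stage test, edgeR adjusted p = 0.834). MELO3C026300.2, also at 0 in leaf, had 225 to 452 CPM in fruit and was at least 3367-, 4323- and 3187-fold lower in leaf. Neither gene was at 0 in any of the 15 other fruit libraries, where the lowest values were 197 and 209 CPM.

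MELO3C008314.2 joined absence from leaf with a course in fruit. It had 0 counts in leaf, against 21.3, 54.4 and 31.1 CPM at 20-25 d, 34.6, 80.0 and 85.2 CPM at 30-35 d, and 154, 136 and 134 CPM at 40 d. The 40 d libraries lay above all others (stage test, edgeR adjusted p = 0.0275), and the bound on the fold lower in leaf was 387 at 20-25 d, 725 at 30-35 d and 1539 at 40 d.

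MELO3C025026.2 had 0.128, 0 and 0.394 CPM in leaf and 582 to 2861 CPM in fruit. Its log2 fold change of -12.81 ± 1.43 (SE; edgeR adjusted p = 1.81e-07) became -14.41 without leaf replicate 3, which holds most of its leaf reads. MELO3C028574.2 was uneven in fruit, with 1.2, 318 and 480 CPM at 20-25 d, 180, 3.78 and 1.96 CPM at 30-35 d, and 63.1, 129 and 130 CPM at 40 d, where leaf had 0 counts. Its bound at 30-35 d, at least 674-fold lower in leaf, rested on replicate 1 and was 31-fold without it. At 20-25 d its bound was 2900-fold, and without replicate 3 of that stage it was 1735-fold.

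**Figure D4:**
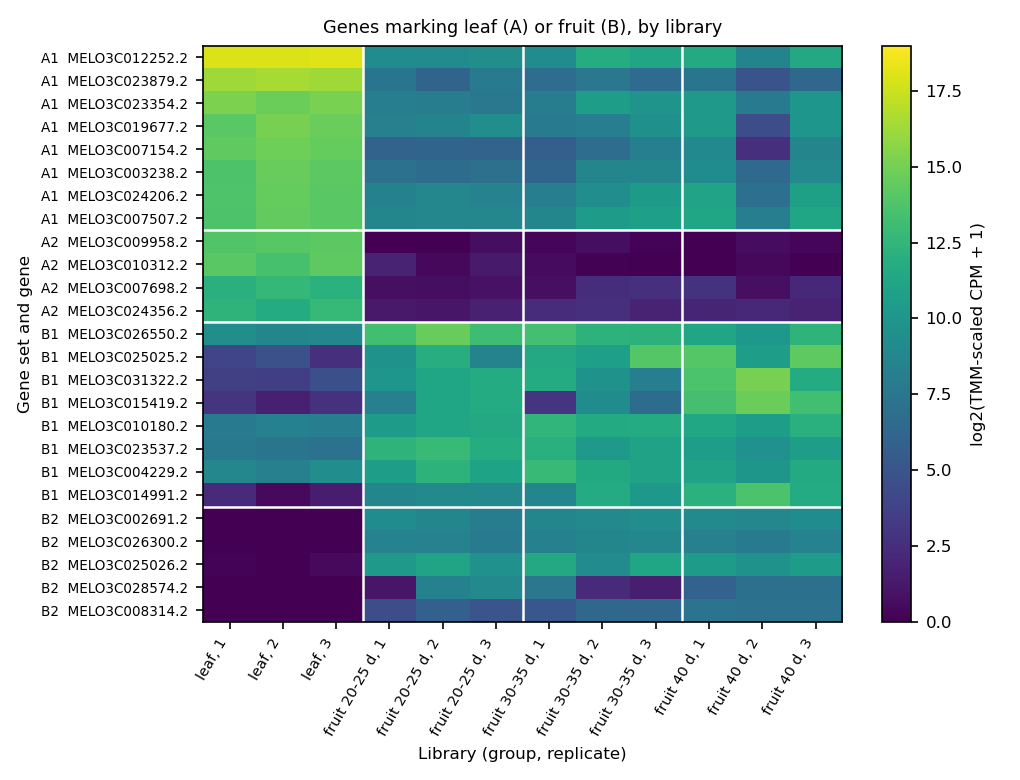
Level of leaf-marking genes (A1 most abundant, A2 largest difference) and fruit-marking genes (B1 and B2 likewise), 1 row per gene and 1 column per library, coloured by log2(CPM + 1). Upper rows are bright in the 3 leaf columns and lower rows dark there, down to 0 counts for 4 of the B2 genes, and the rows of the abundant fruit genes change in colour between fruit libraries.

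The stage at which a difference was largest varied from gene to gene. The difference from leaf depended on fruit stage for 3052 genes (20.2%), by the edgeR test that the 3 fruit means are equal. For 1085 of these it was largest at 20-25 d, for 326 at 30-35 d and for 1641 at 40 d. Among leaf-marking genes 418 (19.2%) passed this test, with 182, 36 and 200 largest at the 3 stages, and among fruit-marking genes 271 (15.9%), with 89, 48 and 134. Both shares lie near or under that of all genes. Omission of replicate 1, 2 or 3 of 20-25 d brought the count of 3052 to 1906, 1962 or 1812, and omission of replicate 2 of 40 d brought it to 1972.

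Rank order over 10797 genes placed the 3 stages at nearly the same distance from leaf. Spearman's rho between a leaf and a fruit library had a median of 0.408 at 20-25 d (0.389 to 0.441 over 9 pairs), 0.401 at 30-35 d (0.362 to 0.464) and 0.397 at 40 d (0.303 to 0.427). Pairs of leaf libraries had a median of 0.938, and pairs of a 20-25 d with a 40 d library 0.725. The lowest single fruit library was replicate 2 of 40 d, with a median of 0.305 against the leaf libraries. By the median absolute log2 difference over the same genes, leaf-to-fruit pairs had medians of 1.152, 1.218 and 1.202 at the 3 stages. This measure was highest at 30-35 d, with overlapping ranges of 1.085 to 1.221, 1.078 to 1.28 and 1.149 to 1.356. These values are over genes, which are not independent replicates, and the pairs share libraries.

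Presence and absence were counted over all 25200 genes of the files, not only the 15130 tested. At least 1 CPM in all leaf libraries with less than 0.1 CPM in all 3 fruit libraries of 20-25 d was found for 279 genes. For 30-35 d and 40 d it was found for 351 and 332. The reverse held for 77, 34 and 102 genes. For all 9 fruit libraries together the numbers were 86 for leaf without fruit and 23 for fruit without leaf, beside 9085 genes at 1 CPM or more in all 12. Leaf without fruit was the larger class at each stage, also with limits of 2 and 0.5 CPM, where it held 405, 573 and 760 genes against 119, 60 and 146. Since every library of a group must meet the limit, leaving out 1 can only keep or raise these numbers. The first class was 486 at 20-25 d without its replicate 1 and 543 at 30-35 d without its replicate 1. The second was 118 at 20-25 d and 61 at 30-35 d without leaf replicate 1, 53 at 30-35 d without leaf replicate 3, 58 and 63 at 30-35 d without its replicates 1 and 2, 181 at 40 d without its replicate 3, and 36 for all stages without leaf replicate 1.

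A small group of genes lay between early and late fruit in leaf. Leaf was above 20-25 d and below 40 d for 18 genes (0.119%), and below 20-25 d and above 40 d for 38 (0.251%). The choice of these genes places 40 d and 20-25 d on opposite sides of leaf, so a test between those stages adds nothing to it. MELO3C004006.2 is of the first kind, with 23.0, 28.9 and 25.3 CPM in leaf, against 2.52, 2.58 and 0.893 CPM at 20-25 d, 15.1, 120 and 155 CPM at 30-35 d, and 140, 96.2 and 148 CPM at 40 d. Leaf overlapped with neither end of fruit development, and replicate 1 of 30-35 d was below leaf while replicates 2 and 3 were above. The log2 fold change was 3.66 ± 0.69 at 20-25 d and -2.31 ± 0.64 at 40 d (SE; edgeR adjusted p = 0.000221 and 0.00504).

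MELO3C022355.2 had 6.54, 6.73 and 7.36 CPM in leaf, against 1.57, 1.02 and 0 CPM at 20-25 d, 5.93, 99.8 and 185 CPM at 30-35 d, and 209, 269 and 273 CPM at 40 d. The log2 fold change was 2.91 at 20-25 d and -5.18 at 40 d (edgeR adjusted p = 0.0154 and 0.000212). At 20-25 d it was 3.58 without replicate 1 and, no longer past the threshold, 2.39 without replicate 3 (adjusted p = 0.0541). MELO3C020005.2 had log2 fold changes of 3.05 and -2.36 at those stages (adjusted p = 0.00199 and 0.0089), which were 2.20 and -3.20 without leaf replicate 2, its highest leaf library at 421 CPM against 138 and 111. MELO3C019804.2 (2.63 and -2.60, adjusted p = 0.0316 and 0.0283) lost a call in 8 of 12 fits that left out 1 library: leaf replicates 1, 2 and 3, each replicate of 20-25 d, and replicates 1 and 3 of 40 d, with adjusted p from 0.0599 to 0.111. With library totals alone the 20-25 d calls of MELO3C022355.2 (1.84, edgeR adjusted p = 0.0905) and MELO3C019804.2 (1.57, adjusted p = 0.124) were lost. Without the filter on low counts that of MELO3C019804.2 was also lost (adjusted p = 0.0525).

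Of the second kind, MELO3C012305.2 had 31.4, 27.4 and 14.5 CPM in leaf, against 168, 396 and 346 CPM at 20-25 d, 200, 1.39 and 43 CPM at 30-35 d, and 0.129, 0.519 and 0.348 CPM at 40 d. Leaf again overlapped with neither end, and the log2 fold change was -3.63 ± 1.04 at 20-25 d and 6.21 ± 1.32 at 40 d (SE; edgeR adjusted p = 0.00797 and 0.000676). MELO3C009736.2 (-3.63 and 4.73), MELO3C011986.2 (-3.52 and 3.61) and MELO3C006821.2 (-3.00 and 2.99) were called with adjusted p from 0.0076 to 0.0334 and lost a call in 4, 8 and 4 of the 12 fits that left out 1 library. For MELO3C009736.2 these left out leaf replicate 2 or 3 or replicate 1 or 2 of 20-25 d, and its values were -4.57 and 3.78 without leaf replicate 1 and 5.82 at 40 d without replicate 3 of that stage. For MELO3C011986.2 they left out any leaf library, replicate 2 or 3 of 20-25 d or any library of 40 d. For MELO3C006821.2 they left out leaf replicate 1 or 3, replicate 2 of 20-25 d, which gave -2.19 (adjusted p = 0.0914), or replicate 2 of 40 d. With library totals alone the 40 d calls of MELO3C011986.2 (2.83, edgeR adjusted p = 0.0792) and MELO3C006821.2 (2.15, adjusted p = 0.0517) were lost. Without the filter on low counts MELO3C009736.2 lost its call at 20-25 d (adjusted p = 0.0545). MELO3C011986.2 then lost its calls at 20-25 d and 40 d (adjusted p = 0.0627 and 0.0644).

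Larger groups were near leaf at one end of development and apart at the other. They were within 2-fold of leaf and not called at one end, called at the other with no overlap, and past the test of 40 d against 20-25 d. Of the 15130 genes tested, 584 were such genes higher in leaf than at 40 d and near leaf at 20-25 d, and 249 were higher in leaf than at 20-25 d and near leaf at 40 d. A further 476 were lower in leaf than at 20-25 d and near leaf at 40 d, and 503 were lower in leaf than at 40 d and near leaf at 20-25 d. Among all genes tested, 20.1% were called higher in leaf than at 20-25 d and 26.3% than at 40 d. Those called lower in leaf were 21% and 22.8%. The numbers near each end were not tested against each other. The interval of a gene not called may still hold a difference, so being near leaf is a statement on its estimate.

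Genes whose estimate in leaf was within 2-fold of young fruit included MELO3C015762.2. It had 92.0, 80.4 and 121 CPM in leaf, against 198, 123 and 160 CPM at 20-25 d, 47.7, 0 and 9.08 CPM at 30-35 d, and 0 counts at 40 d. It was at least 722-fold higher in leaf than at 40 d, while at 20-25 d the log2 fold change was -0.71 ± 1.06 (SE; edgeR adjusted p = 0.621). MELO3C016232.2, with 1018, 988 and 1376 CPM in leaf, had 948, 599 and 885 CPM at 20-25 d, 351, 0.848 and 35.6 CPM at 30-35 d, and 1.16, 0.173 and 1.74 CPM at 40 d. In both, 40 d was the low end and replicate 2 of 30-35 d stood with it. Every leaf library lay below every 20-25 d library for MELO3C015762.2, and above for MELO3C016232.2. MELO3C024660.2 had 51.9 to 70.9 CPM in leaf and 71.2 to 122.7 CPM at 20-25 d, also without overlap. For MELO3C010471.2 leaf and 20-25 d overlapped. Against 40 d the log2 fold changes of MELO3C016232.2, MELO3C010471.2 and MELO3C024660.2 were 10.04, 8.28 and 7.79 (adjusted p from 2.56e-06 to 5.99e-05), or 10.69, 9.15 and 8.67 without replicate 3 of 40 d.

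Genes that leaf shared with late fruit included MELO3C010662.2, with 881, 596 and 997 CPM in leaf, against 9.63, 25.9 and 6.95 CPM at 20-25 d, 119, 2166 and 1218 CPM at 30-35 d, and 1682, 820 and 1906 CPM at 40 d. Leaf and 40 d overlapped and 20-25 d lay far below both. The log2 fold change at 20-25 d was 5.86 ± 1.33 (SE; edgeR adjusted p = 0.00137), or 6.72 without replicate 2 of that stage. MELO3C019273.2, MELO3C006246.2 and MELO3C001274.2 had 4.99, 4.47 and 4.26 there (adjusted p from 2.18e-05 to 0.00283), with 5.14 for MELO3C006246.2 without replicate 1 of 20-25 d. At 40 d they had 0.99, 0.95 and -0.22, so MELO3C019273.2 and MELO3C006246.2 lay only just inside the 2-fold limit. MELO3C019273.2 had 89.4 to 112 CPM in leaf and 40.8 to 56.7 CPM at 40 d, without overlap.

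Genes low in leaf and in late fruit but high in young fruit included MELO3C016017.2. It had 8.98, 7.15 and 5.98 CPM in leaf, against 244, 312 and 451 CPM at 20-25 d, 60.6, 1.00 and 13.5 CPM at 30-35 d, and 5.41, 1.90 and 9.15 CPM at 40 d. Leaf lay inside the range of 40 d, and the log2 fold change at 20-25 d was -5.51 ± 1.14 (SE; edgeR adjusted p = 0.000609). The other 3 genes named by this rule, MELO3C005704.2, MELO3C002483.2 and MELO3C015789.2, had -6.32, -5.65 and -5.30 there (adjusted p from 6.88e-06 to 0.000206). Without leaf replicate 1 the value of MELO3C005704.2 was -7.56, and without replicate 2 of 20-25 d that of MELO3C002483.2 was -4.69.

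Genes low in leaf and in young fruit but high in late fruit included MELO3C003134.2. It had 20.0, 29.1 and 10.3 CPM in leaf, against 20.9, 34.6 and 38.2 CPM at 20-25 d, 31.9, 664 and 560 CPM at 30-35 d, and 2079, 3597 and 1576 CPM at 40 d. Leaf overlapped with 20-25 d, and replicate 1 of 30-35 d lay just above leaf, whereas 40 d lay far above, with a log2 fold change of -6.93 ± 0.87 (SE; edgeR adjusted p = 2.57e-06). MELO3C019470.2 reached 11509 CPM in replicate 2 of 30-35 d and 0.0549 CPM in replicate 1. It had -8.16 at 40 d (adjusted p = 0.00452), or -7.21 without replicate 2. MELO3C012471.2 had -8.10 (adjusted p = 0.000165), or -9.07 without leaf replicate 3. For MELO3C002598.2 the value of -7.13 (adjusted p = 0.011) rested on replicate 2 of 40 d, at 869 CPM beside 47.0 and 32.0, and without it was -4.04, no longer past the threshold (adjusted p = 0.0956).

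**Figure D5:**
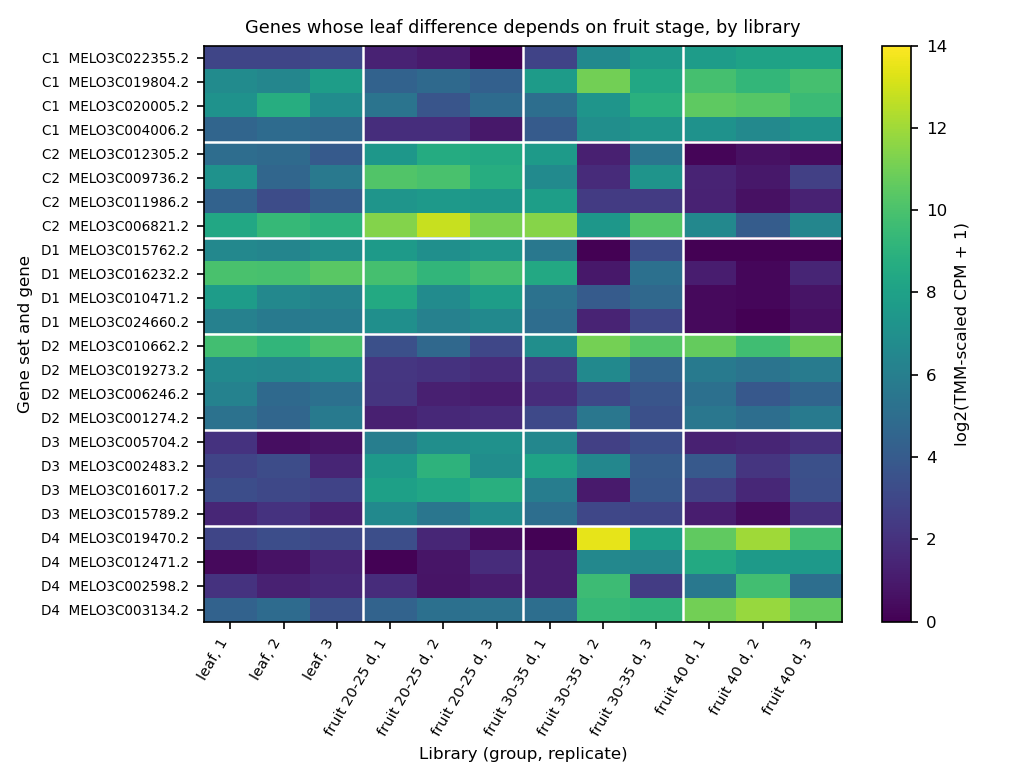
Level of genes whose difference from leaf depends on fruit stage, 1 row per gene and 1 column per library, coloured by log2(CPM + 1). Leaf lies between the ends of fruit development in C1 and C2, is near 20-25 d in D1 and D4 and near 40 d in D2 and D3, and replicate 1 of 30-35 d is closer in colour to 20-25 d in many rows where replicate 2 is closer to 40 d.

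Some abundant genes were held within narrow limits in both tissues. For 339 genes the 95% interval of the log2 fold change lay inside -1 to 1 against every stage. MELO3C017598.2 had 1231, 918 and 998 CPM in leaf, against 1198, 1240 and 1415 CPM at 20-25 d, 954, 1393 and 1186 CPM at 30-35 d, and 1067, 962 and 1133 CPM at 40 d. The groups overlapped throughout, with a log2 fold change of -0.16 ± 0.26 (SE; edgeR adjusted p = 0.646). MELO3C020251.2, MELO3C013334.2 and MELO3C019668.2 had -0.07, 0.13 and -0.04. This rests on the scaling: with library totals alone the 4 values were -1.07, -0.97, -0.79 and -0.99 in that order, and all 4 passed the threshold (edgeR adjusted p from 0.00156 to 0.0105).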

How the data were processed

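Per the labels' protocols, RNA of powdered frozen leaf or fruit was made into cDNA libraries with a kit for mRNA from NuGen. The deposited files hold whole-number counts per gene, not normalized, and STAR 2.5.4b and edgeR 3.12.1 are named, without a role, in the submitters' processing notes. Not given in the sources used here are the counting program, genome build, annotation and use of strand, which leaves near-identical and overlapping genes uncertain.

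All 27 libraries, with 1 mean for each of 9 groups, were fitted with edgeR 4.0.16 in R 4.3.3 (TMM, filterByExpr, robust quasi-likelihood F-test). P-values were Benjamini-Hochberg adjusted over the 15130 genes kept, with a threshold of 0.05. Contrasts were leaf minus each F39 stage, leaf minus their mean, equality of the 3 stages, and 40 d minus 20-25 d. The 12 libraries with differing numbers entered the filter, the scaling and the estimate of spread, and, as fruit, the values given for the other 15 libraries. CPM is a count divided by the kept counts times the TMM factor. Library totals of 6500255 to 28731038 set the precision of low genes. Bounds use a floor of 3 counts over the group and cover counting error only, since PCR reads are not independent molecules.

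Genes named averaged 3 or more in log2 CPM across the 12 libraries. The rule took 8 leaf-marking and 8 fruit-marking genes highest in their own tissue and over 4-fold apart at every stage, 5 of each with the largest smallest difference, 4 of each stage pattern by size of difference, and 4 by CPM among those within 2-fold. The members and lists were chosen with earlier results of these data known. Lists of marker genes by product name were not tested, since 0 of 25200 IDs matched the gene table for assembly USDA_Cmelo_AY_1.0, and no genome was used here. The fits were run on simulated data with known changes in leaf, as a check of the code. That simulation had a smaller spread than the groups here, changes balanced in direction and none between fruit stages. It therefore could not test the scaling or the stage results. Alternatives were median-of-ratios scaling, no filter or a stricter one, DESeq2 1.42.0, fewer groups in the fit, thinned counts, and each library left out. Scaling by library totals alone, in the fit and in CPM, was added after seeing the data. Exact permutation tests used scipy 1.17.1.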

Additional observations from a re-analysis of the deposited data

Results flagged for a closer look

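For 18 genes leaf was above fruit at 20-25 d and below fruit at 40 d, and for 38 genes leaf was below at 20-25 d and above at 40 d. These stood out because the same contrast, leaf against fruit, turned its direction between stages. A test of 40 d against 20-25 d uses the values that chose these genes and adds nothing to it. Without leaf replicates 1, 2 and 3 the counts were 10, 9 and 7 of the first kind and 19, 18 and 12 of the second. Omission of replicate 2 of 20-25 d gave 11 and 24. Omission of replicate 1 of 30-35 d gave 33 and 67, and that of its replicate 2 gave 32 and 79.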

How the results depend on the processing

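Leaving out 1 of the 12 libraries at a time gave 6801 to 8079 genes for leaf against the mean of the stages, 5143 to 6508 at 20-25 d, 5680 to 6776 at 30-35 d and 6226 to 7716 at 40 d. It gave 1812 to 3783 stage-dependent, 1881 to 2296 leaf-marking and 1390 to 1682 fruit-marking genes, and 7 to 33 and 12 to 79 genes of opposite sign at the ends of development. Genes detected in leaf and not in fruit numbered 296 to 486, 367 to 543 and 355 to 491 at the 3 stages and 89 to 114 for all of them, and the reverse 93 to 118, 43 to 63, 117 to 181 and 23 to 36. Of the other alternatives, the fit with only the 12 libraries gave 1994 stage-dependent genes, no filter gave 11 in place of 18 genes, and DESeq2 gave 62 in place of 38. Library totals alone gave 1328 leaf-marking and 4100 fruit-marking genes and 70 in place of 38. Limits of 2 and 0.5 CPM gave 119 genes in fruit and not leaf at 20-25 d, 573 and 60 in each direction at 30-35 d, 760 in leaf and not fruit at 40 d, and 249 and 46 for all stages. Detected in fruit at 30-35 d and not in leaf were 52 genes in thinned counts and 55 by CPM of the library total. Without the most abundant gene, 107.7 genes on average held 50% of the leaf counts. The cause of these moves was not tested. Of 1158 values of the 53 genes named, 1118 kept their direction and side of the threshold, 36 were no longer past it, 3 newly passed it and 1 turned its sign, MELO3C013334.2 at -0.79 with library totals alone. No paired analysis was possible because the labels do not name the plant or fruit behind a library. With 3 libraries a group and 6500255 counts in the shallowest, genes of few reads are the least certain.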
